A study of Mus musculus with 8 samples.

Results

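The nuclear genes of oxidative phosphorylation were followed in mouse cochlear explants in which the Wnt pathway had been activated for 6 h with CHIR99021. Members were taken by gene symbol, as the Ndufa, Ndufb, Ndufc, Ndufs and Ndufv genes, Sdha to Sdhd, and every symbol beginning with Uqcr, Cox4 to Cox8 or Atp5, with 3 pseudogene symbols left out. This gave 84 of the 42775 genes measured, of which 77 had a mean level of at least 1 CPM (reads of the gene per 1000000 assigned reads of the library) and were tested. They comprised 35 genes of complex I (35 tested), 4 of complex II (4 tested), 8 of complex III (8 tested), 20 of complex IV (13 tested) and 17 of complex V (17 tested). Choosing by symbol also takes in Atp5s and Atp5sl, which are not subunits of the ATP synthase, and counts Cox7a2l with complex IV. Against their symbols, Ndufa4 and Ndufa4l2 were counted with complex IV, where their proteins are now assigned.

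Each group held 4 libraries. The CHIR99021 group was explants exposed to 10 μM CHIR99021, an inhibitor of the kinase GSK3 that stabilises β-catenin, and the Control group was explants exposed to the vehicle DMSO. All came from wild-type Swiss Webster embryos, and the labels give E12.5 for the dissection with 24 h of culture and E14.0 for the tissue. In both groups the libraries numbered 1 and 3 carry an F in their titles and those numbered 2 and 4 an M. Whole explants were sequenced, so fewer cells of a type and less RNA per cell cannot be told apart. The authors assigned 64905007 to 75434130 reads per CHIR99021 library and 66483661 to 89269187 per Control library. The libraries of replicates 2 and 3 stood apart from those of replicates 1 and 4 in both groups, with 20301 to 20698 against 22838 to 24249 genes that had at least 1 read.

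The respiratory chain passes electrons from NADH (complex I) and succinate (complex II) through complexes III and IV to oxygen, and the ATP synthase (complex V) uses the proton gradient so built to make ATP. Complexes I, III, IV and V are mosaics, since a few central subunits are encoded by mitochondrial DNA and all others by nuclear genes, while complex II is wholly nuclear. The cochlear sensory epithelium and its neurons depend heavily on this pathway in later life, and several of these genes have isoforms that differ between tissues.

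Nearly all of these genes were expressed in CHIR99021 explants at levels close to those of Control explants. Of the 77 tested members 2 rose, Atp5g1 (a gene for the c subunit of the ATP synthase ring) and Cox5a (a subunit of cytochrome c oxidase), and 2 fell, Atp5sl and Atp5s. The other 73 did not pass the test, which was limma on log2(CPM + 1) with Benjamini-Hochberg adjustment over all genes. Across all 14264 genes tested, 33.7% passed, with 12.3% higher and 21.4% lower in CHIR99021 explants. The median log2 fold change was 0.03 over the members and -0.05 over all genes.

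The spread of the fold changes among members was also narrow. On the log2 scale 46 of the 77 lay between -0.1 and 0.1, against 30.03% of all genes tested, and 74 lay between -0.3 and 0.3, against 70.1% of all genes. Only Atp5sl exceeded 0.5 in size, a limit passed by 12.8% of all genes. The median half-width of the 95% interval was 0.19 for members and 0.20 for all genes, and for 72 of the 77 members the whole interval lay between -0.5 and 0.5. At a mean CPM of at least 10 it was 0.19 for 74 members and 0.17 for all genes, of which 9.54% exceeded 0.5 in size. The groups of libraries did not overlap in 6 members (Atp5g1, Cox5a, Atp5b, Atp5s, Atp5sl and Sdha), against 33.3% of all genes tested.

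**Figure D1:**
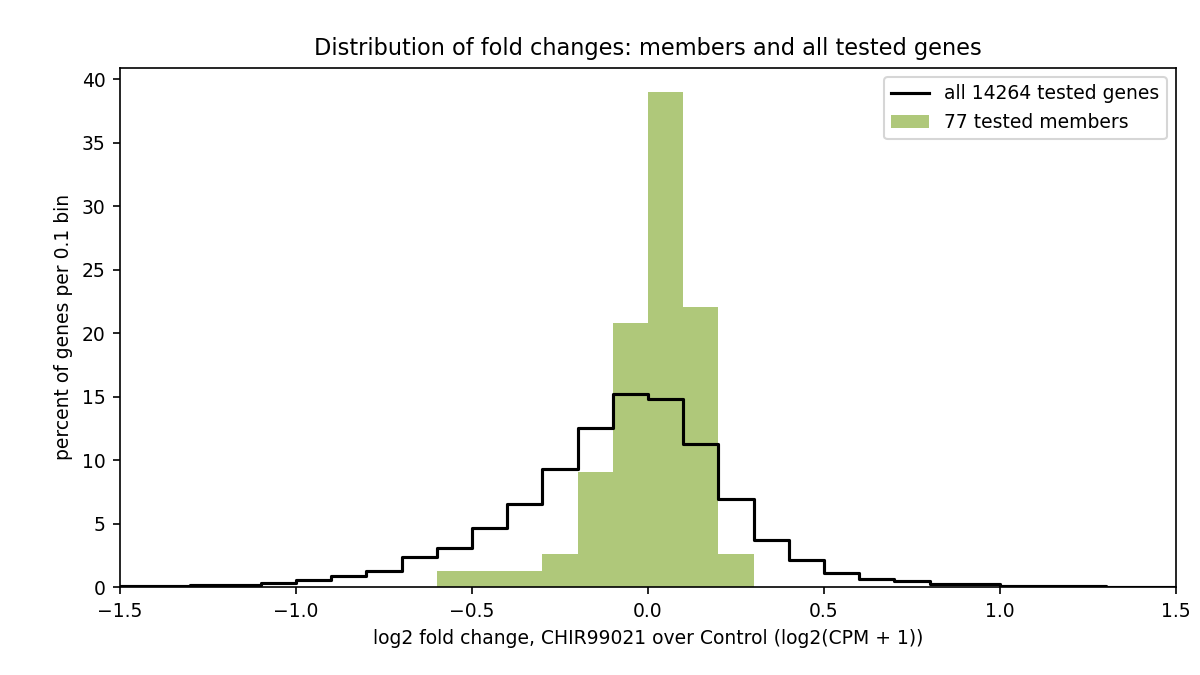
Share of genes (y axis, percent of genes per bin of 0.1) by log2 fold change of CHIR99021 over Control on log2(CPM + 1) (x axis), for the 77 tested members (green bars) and all 14264 tested genes (black line). The members crowd around 0, with 46 of 77 between -0.1 and 0.1, while the black line is wider and extends further to the left.

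For Atp5g1, Cox5a and Atp5sl, which passed the test, the 250 bases that precede the annotated start were searched for motifs and are shown without any bases that lie in an annotated exon, together with those of the 2 paralogs of Atp5g1, because Atp5g1, Atp5g2 and Atp5g3 encode the same mature c subunit behind different import peptides and their levels differed. Sequences are from RefSeq on GRCm38.p6, run 5′ to 3′ on the strand of the gene, and carry in capitals any match, on either strand, to CGCANGCG (the core of the site of NRF1, a regulator of respiratory genes), CCGGAAGT (an ETS site such as GABP binds) or AAGATGGC (a YY1 site). A match is only a run of letters, and matches of different motifs did not overlap in any member.
Atp5g1 (chr11:96075671-96075881, - strand): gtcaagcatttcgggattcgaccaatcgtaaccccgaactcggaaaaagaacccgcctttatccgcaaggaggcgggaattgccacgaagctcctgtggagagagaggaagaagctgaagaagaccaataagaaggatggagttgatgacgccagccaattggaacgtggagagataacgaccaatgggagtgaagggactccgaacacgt
Atp5g2 (chr15:102671128-102671297, - strand): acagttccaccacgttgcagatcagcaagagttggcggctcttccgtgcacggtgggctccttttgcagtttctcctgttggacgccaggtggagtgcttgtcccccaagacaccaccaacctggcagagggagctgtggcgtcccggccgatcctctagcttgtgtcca
Atp5g3 (chr2:73911327-73911576, - strand): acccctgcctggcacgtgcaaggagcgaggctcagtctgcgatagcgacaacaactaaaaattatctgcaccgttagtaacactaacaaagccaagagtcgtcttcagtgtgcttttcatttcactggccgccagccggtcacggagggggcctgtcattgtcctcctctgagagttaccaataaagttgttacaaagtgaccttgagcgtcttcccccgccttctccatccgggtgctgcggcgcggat
Cox5a (chr9:57520982-57521231, + strand): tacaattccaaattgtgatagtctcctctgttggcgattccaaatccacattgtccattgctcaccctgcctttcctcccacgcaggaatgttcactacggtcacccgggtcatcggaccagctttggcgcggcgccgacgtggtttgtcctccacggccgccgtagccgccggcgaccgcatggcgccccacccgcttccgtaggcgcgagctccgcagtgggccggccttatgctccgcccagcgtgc
Atp5sl (chr7:25619164-25619413, + strand): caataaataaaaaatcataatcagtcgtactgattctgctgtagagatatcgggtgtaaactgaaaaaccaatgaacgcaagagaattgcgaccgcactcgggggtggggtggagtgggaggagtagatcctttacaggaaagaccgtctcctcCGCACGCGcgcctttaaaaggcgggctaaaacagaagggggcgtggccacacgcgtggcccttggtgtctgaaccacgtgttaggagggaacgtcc

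Of these 5 windows, Atp5g2 and Atp5sl each held 1 match to CGCANGCG, and the others held no match to the 3 motifs. The window of Atp5s, which also passed the test and fell, held no match either and is not shown. The match in Atp5g2 began 41 bases before the RefSeq start, in an exon of a GENCODE M21 transcript, and is not among the bases shown. Atp5sl has a further annotated start downstream, whose own window also held 1 match to AAGATGGC. For Atp5g2 and Cox5a the bases that follow the RefSeq start were not found in a GENCODE M21 transcript of the gene, so that start is less certain. Over the 66 tested members with an entry in the table, CGCANGCG occurred in 28.8%, against 16.05% of the 10526 tested genes with an entry and 7.65% of all 27025 genes. CCGGAAGT occurred in 4.55% of these members, against 6.60% of tested genes, and AAGATGGC in 3.03%, against 2.35%. The 19 members with CGCANGCG had a median log2 fold change of 0.03 and the 47 without it also 0.03.

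Counted by symbol, complex V held 1 higher and 2 lower calls among 17 genes. Without Atp5s and Atp5sl, which are not subunits of the enzyme, it held 1 higher and 0 lower among 15. Atp5g1 (ENSMUSG00000006057, chr11:96068852-96075670 on GRCm38) stood at 78.2, 94.95, 80.1 and 72.4 CPM in CHIR99021-treated explants, against 59.9, 68.3, 69.5 and 66.1 CPM in Control explants. Every CHIR99021-treated library lay above every Control library, and the means were 81.4 ± 9.61 and 65.9 ± 4.29 CPM (SD, n = 4 each). The log2 fold change was 0.30 (SE 0.083, limma adjusted p = 0.0192). The call was lost without the Control library of replicate 1 (adjusted p = 0.0513), which was the lowest Control library for Atp5g1.

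The paralogs gave weaker differences. Atp5g3 had 278, 315, 314 and 267 CPM in CHIR99021-treated explants, against 241, 246, 289 and 270.2 CPM in Control explants, with overlapping groups and a log2 fold change of 0.17 (SE 0.077, limma adjusted p = 0.12, 0.0437 after TMM scaling). Atp5g2 had 96.1, 122, 109 and 95.4 CPM in CHIR99021-treated explants, against 94.2, 102, 104 and 106 CPM in Control explants, and its log2 fold change was 0.05 (95% interval -0.13 to 0.23). Whether the 3 paralogs differed from each other in response was not tested. Per kilobase of their longest transcripts, Atp5g3 was the most abundant of the 3 in CHIR99021 and in Control explants (340.3 and 303 CPM per kb), above Atp5g2 (140.3 and 135 CPM per kb) and Atp5g1 (17.3 and 13.99 CPM per kb, over an annotated transcript of 4715 bases). The longest transcripts of Atp5g2 and Atp5g3 are 753 and 862 bases, so the distance of Atp5g1 from them depends on the length used.

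The catalytic β subunit of the ATP synthase, Atp5b, was the most highly expressed member on the CPM scale and fell just short of the threshold. Its level was 1101, 1115, 1093 and 1057 CPM in CHIR99021-treated explants, against 923, 979, 1036 and 943 CPM in Control explants. The groups did not overlap, and the log2 fold change was 0.17 (SE 0.061, limma adjusted p = 0.0508), with adjusted p = 0.0333 when the replicate number was a block. The partner α subunit, Atp5a1, had 823 to 901 CPM in CHIR99021-treated explants and 815 to 923 CPM in Control explants, with a log2 fold change of -0.0033 (95% interval -0.14 to 0.13). The remaining rotor, stalk and membrane subunits (γ to ε, b, d, e, f, g, F6 and OSCP, encoded by Atp5c1, Atp5d, Atp5e, Atp5f1, Atp5h, Atp5k, Atp5j2, Atp5l, Atp5j and Atp5o) had log2 fold changes between -0.06 and 0.20, and none passed the test.

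Both genes that fell carry an Atp5 symbol without encoding a subunit of the enzyme. Atp5sl, now named Dmac2, is an assembly factor of the complex I membrane arm in human cells, and Atp5s, now Dmac2l, encodes the protein known as coupling factor B. Atp5sl (ENSMUSG00000057229, chr7:25619414-25625551) had 13.1, 15.9, 14.4 and 12.7 CPM in CHIR99021-treated explants, against 21.3, 19.7, 20.5 and 23.3 CPM in Control explants. The groups were far apart, with a log2 fold change of -0.57 (SE 0.091, limma adjusted p = 0.000877), the largest change in size among the tested members on the log2(CPM + 1) scale. Atp5s (ENSMUSG00000054894, chr12:69724950-69744660) had 4.19, 4.65, 4.37 and 5.11 CPM in CHIR99021-treated explants, against 6.42, 6.30, 6.48 and 5.86 CPM in Control explants, again without overlap, and its log2 fold change was -0.38 (SE 0.10, limma adjusted p = 0.0136). Without these 2 genes, 2 members rose and 0 fell among 75, and complex V had a median log2 fold change of 0.05 over 15 genes.

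**Figure D2:**
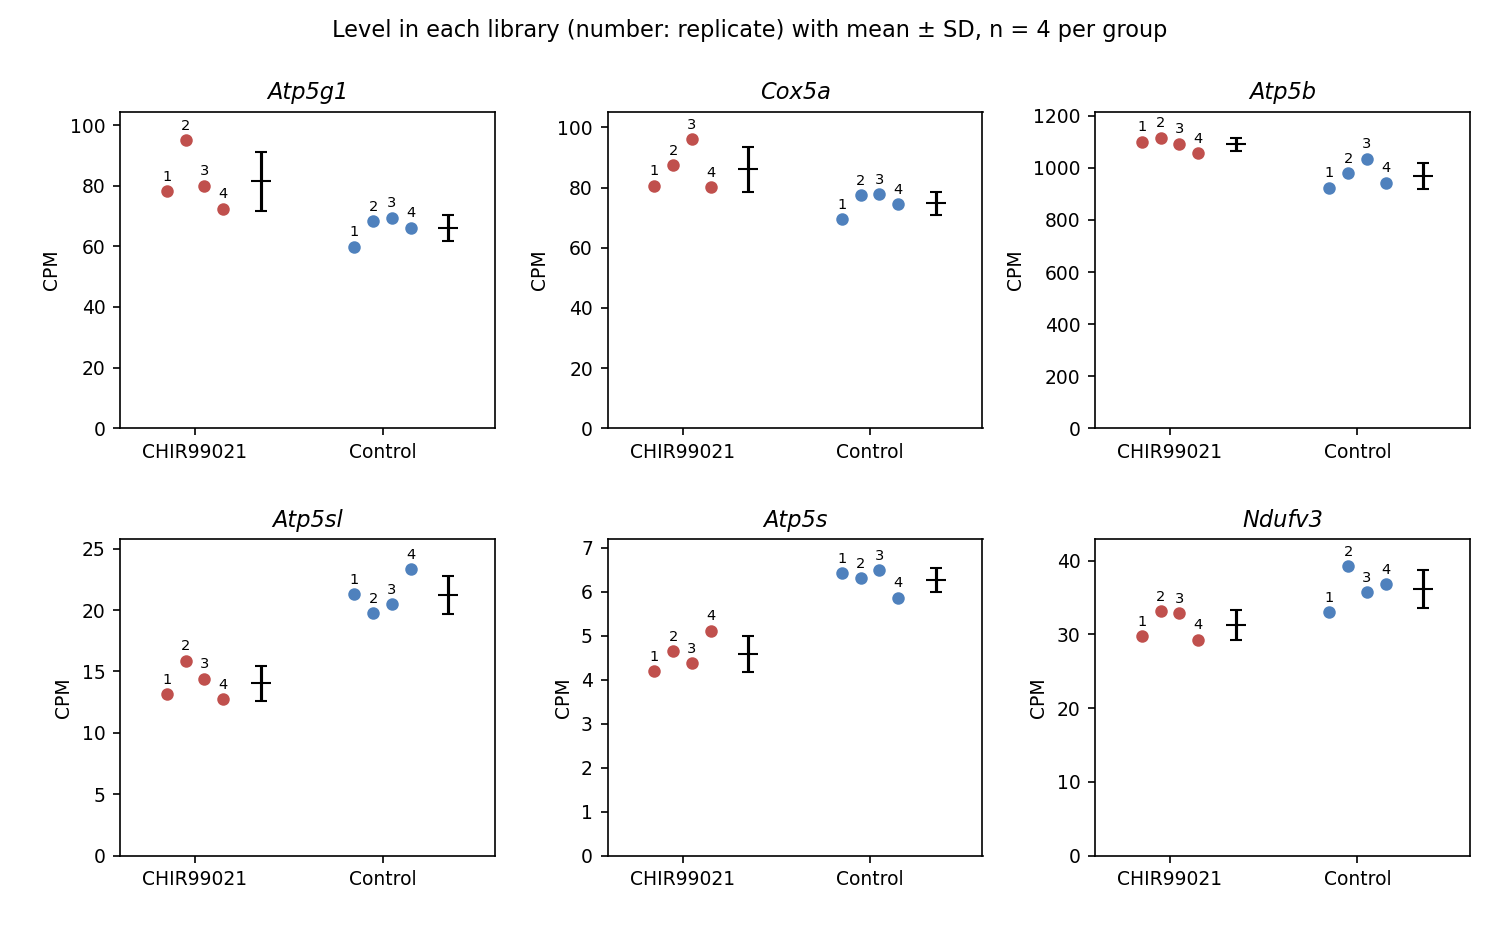
CPM (y axis, from 0) of 6 members in each library of the CHIR99021 (red, left) and Control (blue, right) groups, each point numbered by replicate, with the mean and SD of 4 libraries in black. Atp5g1, Cox5a and Atp5b are higher and Atp5sl and Atp5s lower in every CHIR99021 library than in any Control library, while for Ndufv3 the highest CHIR99021 libraries (33.1 and 32.9 CPM) meet the lowest Control library (33.0 CPM).

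In complex IV, cytochrome c oxidase, 12 of 13 tested genes had a fold change above 0, with a median of 0.10 on the log2 scale, but only Cox5a passed the test. Of all genes tested, 42.3% had a fold change above 0. The count for complex IV was 8 of 13 without CHIR99021 replicate 2 and 10 of 13 without Control replicate 1. Cox5a (ENSMUSG00000000088, chr9:57521274-57532426) had 80.6, 87.4, 96.1 and 80.2 CPM in CHIR99021-treated explants, against 69.5, 77.4, 77.7 and 74.5 CPM in Control explants. The groups did not overlap, with 80.2 CPM as the lowest CHIR99021-treated library and 77.7 CPM as the highest Control library. The log2 fold change was 0.20 (SE 0.069, limma adjusted p = 0.047). This call was marginal, since it was lost on leaving out CHIR99021 replicate 2 or 3 (adjusted p = 0.0874 and 0.131) or Control replicate 1, 2, 3 or 4 (adjusted p = 0.115, 0.0658, 0.0507 and 0.0853). A noncoding gene on the opposite strand covers 12.8% of the exonic bases of Cox5a, and the library kit marks strand, but whether the authors counted by strand is not given in the sources used here.

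Cox7c, a small membrane subunit, had 67.9, 73.6, 65.8 and 61.1 CPM in CHIR99021-treated explants, against 54.1, 58.2, 58.5 and 64.7 CPM in Control explants, and a log2 fold change of 0.19 (SE 0.073, limma adjusted p = 0.0709, 0.0237 after TMM scaling). Only Control replicate 4 reached into the CHIR99021-treated range. Cox4i1, the ubiquitous form of the regulatory subunit and the most abundant complex IV gene per kilobase, had 322 to 417 CPM in CHIR99021-treated explants and 289.8 to 382 CPM in Control explants, with a log2 fold change of 0.03 (95% interval -0.19 to 0.25). Among the others, Cox6a1, Cox6b1, Cox6c, Cox7a2, Cox7b, Cox8a and Ndufa4 all had intervals that included 0.

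The tissue-restricted isoforms of complex IV were low or undetected, and 7 of them averaged under 1 CPM and were not tested. Cox8b and Cox8c had 0 reads in all 8 libraries, which for counting error allows a level of up to 0.0336 to 0.0462 CPM, the worth of 3 reads. Cox6a2, the heart and muscle form of Cox6a, was at 0 in every library but Control replicate 1 (0.056 CPM). Cox7b2 was at 0 in all 4 CHIR99021-treated libraries and in 2 Control libraries, with at most 0.0618 CPM. Cox7a1, the heart and muscle form of Cox7a, had 0.647 to 1.25 CPM in CHIR99021-treated explants and 0.684 to 1.52 CPM in Control explants, and Ndufa4l2 was at most 0.312 CPM. Cox4i2, the form of Cox4 known from lung and from hypoxia, had 0.703, 0.740, 0.670 and 0.677 CPM in CHIR99021-treated explants and 0.751, 1.35, 1.32 and 0.977 CPM in Control explants. Cox4i2 lay under the filter of the main test. Each Control library was above each CHIR99021-treated library, but the gene did not pass where it was tested, with an adjusted p of 0.102 in limma without a filter, 0.166 in edgeR and 0.172 in DESeq2. Of the sperm-associated Cox6b2 there were 4.20, 3.04, 3.13 and 3.32 CPM in CHIR99021-treated explants and 4.48, 4.66, 2.70 and 5.25 CPM in Control explants, with overlapping groups (limma adjusted p = 0.315).

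Complex III, which hands electrons from ubiquinol to cytochrome c, had 0 calls among 8 genes and a median log2 fold change of 0.10. Uqcrfs1, the Rieske iron-sulfur protein, had 109, 125, 120.3 and 108 CPM in CHIR99021-treated explants, against 94.1, 105, 109 and 102 CPM in Control explants. The groups overlapped slightly at Control replicate 3, and the log2 fold change was 0.17 (SE 0.066, limma adjusted p = 0.0732). With the replicate number as a block, or with TMM scaling, it passed (adjusted p = 0.0223 and 0.0214). The core protein Uqcrc2 had 175 to 201 CPM in CHIR99021-treated explants and 185 to 203 CPM in Control explants, with a log2 fold change of -0.06 (95% interval -0.19 to 0.07).

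The other core protein, Uqcrc1, was counted at a low level. How the authors treated reads with several matches is not given, and whether the count reflects its expression was not tested. It had 1.88, 1.54, 1.54 and 1.22 CPM in CHIR99021-treated explants, against 1.501, 1.41, 8.93 and 1.34 CPM in Control explants, with a single library, Control replicate 3, far above the rest. Per kilobase this was the lowest of the 77 tested members (0.624 CPM per kb in CHIR99021 and 1.33 CPM per kb in Control explants), although the protein pairs with that of Uqcrc2 (97.1 and 101 CPM per kb). No other gene of GENCODE M21 shares exonic bases with it, and its log2 fold change of -0.44 had an interval of -1.32 to 0.43. On recovered reads edgeR gave -1.04 (adjusted p = 0.226).

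Complex II, succinate dehydrogenase, is also an enzyme of the tricarboxylic acid cycle, and 0 of its 4 genes passed the test. Sdha, the flavoprotein that oxidises succinate, had 251, 251, 243 and 243 CPM in CHIR99021-treated explants, against 269.8, 261, 279.5 and 265 CPM in Control explants. All 4 CHIR99021-treated libraries were below all 4 Control libraries, with a log2 fold change of -0.12 (SE 0.047, limma adjusted p = 0.0659). After TMM scaling the fold change of Sdha was -0.06 (adjusted p = 0.369). The iron-sulfur subunit Sdhb had 91.7 to 111 CPM in CHIR99021-treated explants and 92.7 to 106 CPM in Control explants. Of the 2 membrane anchors, Sdhc had 78.4 to 102 and 78.1 to 105 CPM in the same order, and Sdhd 90.9 to 104 and 85.7 to 100.05 CPM. The ranges of these 3 genes overlapped, with log2 fold changes of 0.02 (Sdhb), -0.11 (Sdhc) and 0.06 (Sdhd).

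Complex I, the largest set, had 0 calls among 35 genes, with 17 fold changes above 0 and 18 below and a median log2 fold change of -0.01. The even split depended on the scaling and on single libraries. After TMM scaling 25 of 35 were above 0, against 51.6% of all genes, with a median of 0.05 and still 0 calls. The count above 0 was 9 of 35 without CHIR99021 replicate 2 and 8 of 35 without Control replicate 1. In its catalytic core, which carries the flavin and the iron-sulfur clusters, Ndufs1, Ndufs3, Ndufs7, Ndufs8, Ndufv1 and Ndufv2 ranged from -0.13 (Ndufs8) to 0.06 (Ndufs7) on the log2 scale, and none passed the test.

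The 28 supernumerary genes, whose products surround the core, ranged from -0.20 (Ndufv3) to 0.23 (Ndufa12). Ndufv3 had 29.8, 33.1, 32.9 and 29.3 CPM in CHIR99021-treated explants, against 33.0, 39.2, 35.7 and 36.8 CPM in Control explants. In each same-numbered pair it was lower in the CHIR99021-treated library, and limma gave an adjusted p of 0.0536, or 0.0272 with the replicate number as a block. After TMM scaling the log2 fold change of Ndufv3 was -0.14 (adjusted p = 0.155, or 0.0994 with the block as well), and edgeR and DESeq2 gave adjusted p = 0.206 and 0.225. Ndufa12 had 36.9, 43.5, 39.2 and 34.9 CPM in CHIR99021-treated explants, against 32.4, 28.8, 29.3 and 41.5 CPM in Control explants. Its 4 CHIR99021-treated libraries exceeded Control replicates 1 to 3, while Control replicate 4 was within their range (limma adjusted p = 0.142). Ndufb2 stood out by its low count, 8.71 to 11.2 CPM in CHIR99021-treated explants and 8.89 to 13.9 CPM in Control explants, with overlapping groups. A gene annotated on the same strand shares 145 of its exonic bases (2.58%), and the bearing of this on its count was not tested. In Ndufb6 and Ndufa13 a gene on the opposite strand covers 39.0% and 29.98% of the exonic bases, and in Ndufb9 and Atp5o a gene annotated on the same strand covers 19.5% and 12.3%, so the counts of these genes are uncertain.

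**Figure D3:**
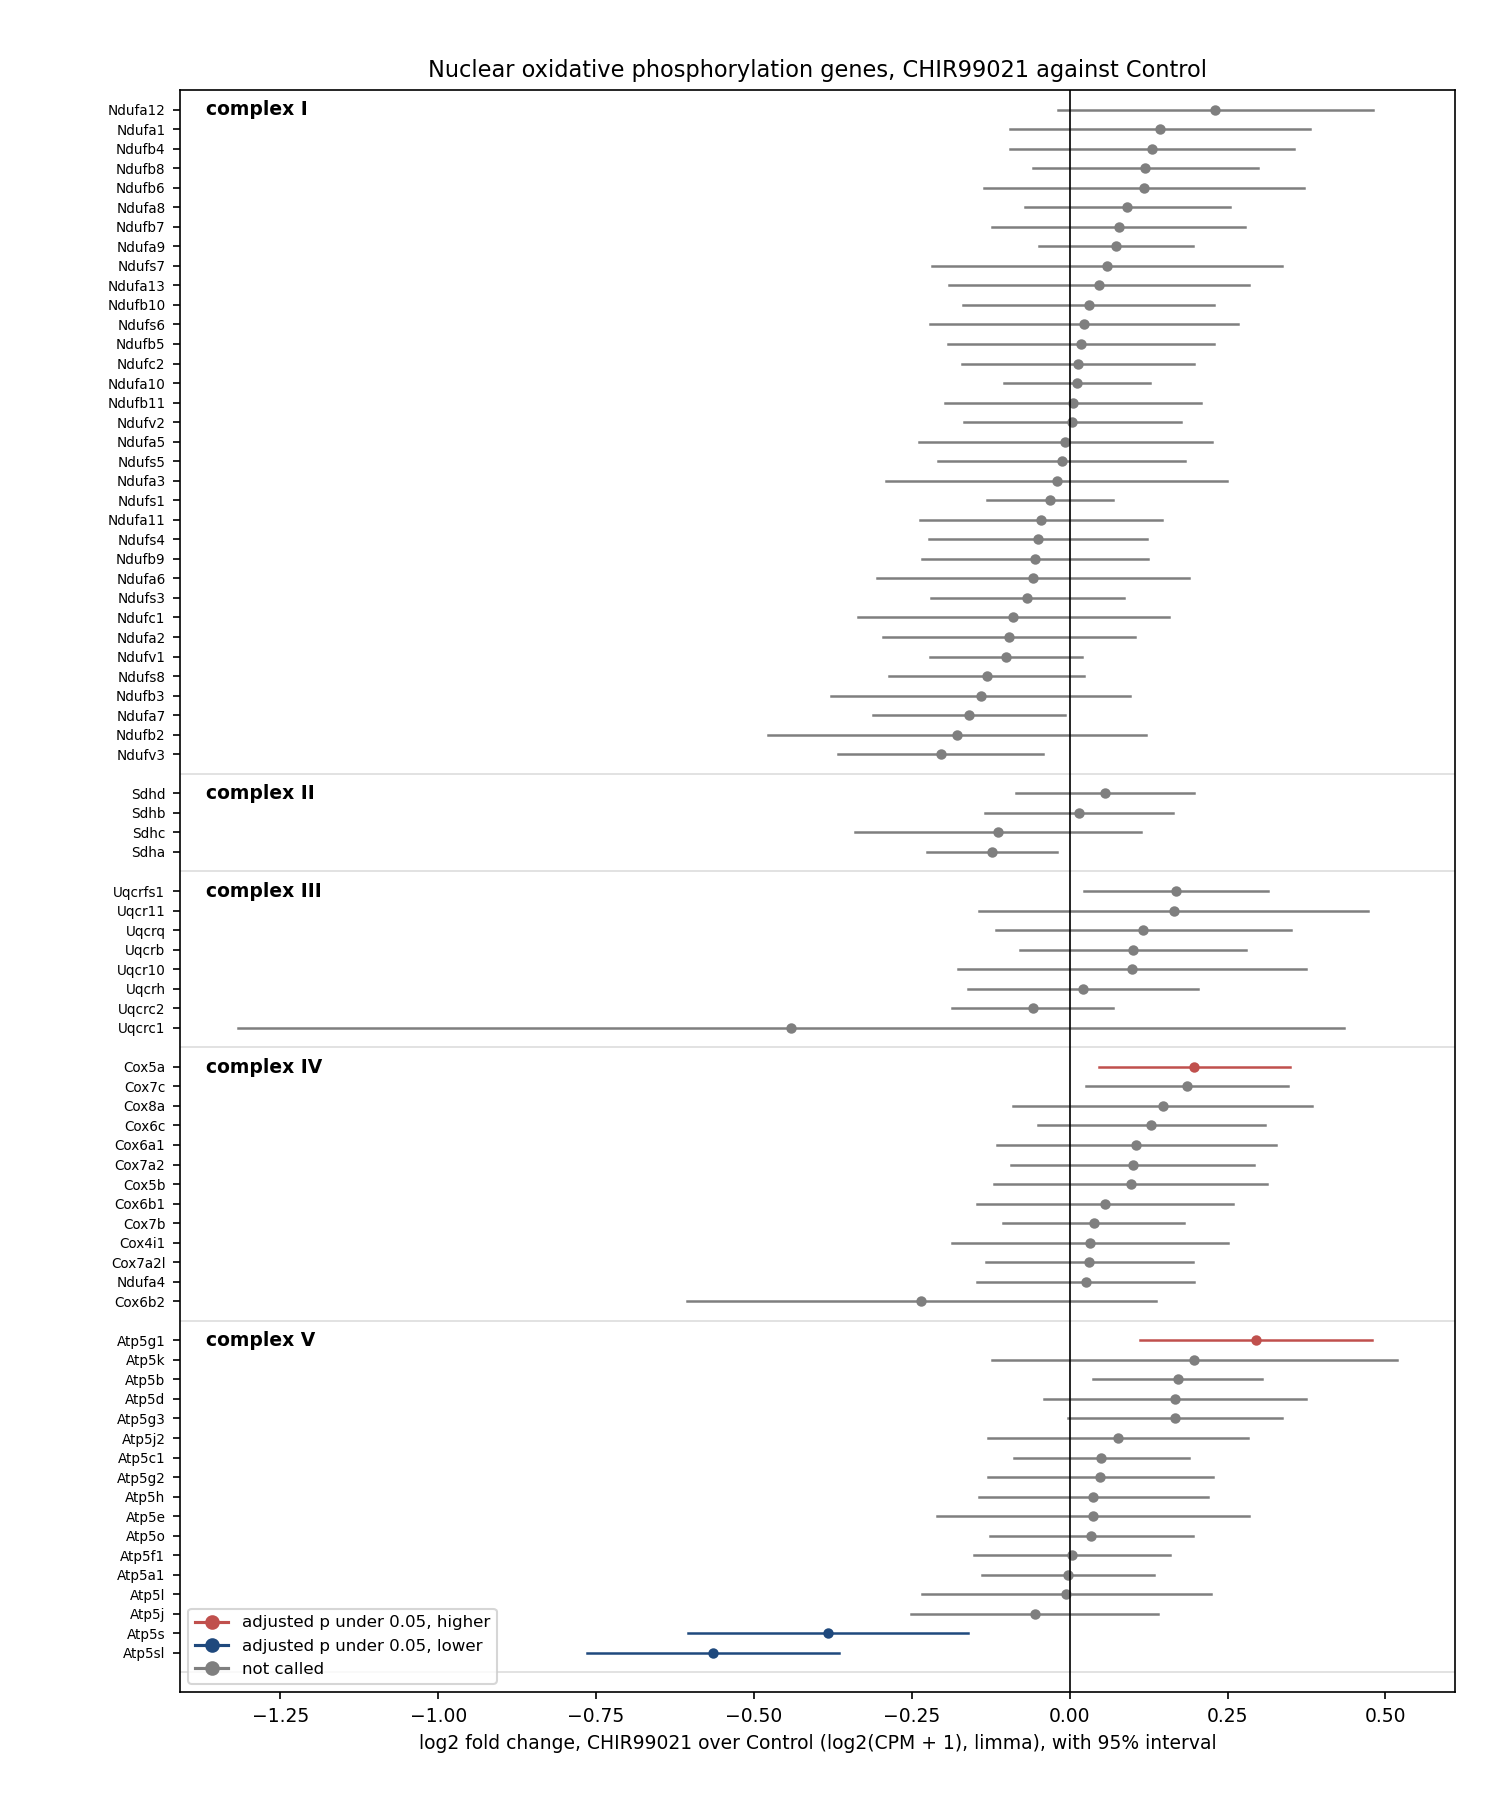
Log2 fold change of CHIR99021 over Control (x axis, log2(CPM + 1)) for 76 of the 77 tested members (rows), grouped by complex, with points for the estimates and lines for 95% intervals (n = 4 libraries per group). Most points lie between -0.2 and 0.2, with Atp5g1 and Cox5a called higher (red), Atp5sl and Atp5s called lower (blue) and a wide interval for Uqcrc1.

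How many members passed depended on the treatment of scale and of replicate number. After TMM scaling, which lowered the CHIR99021 library sizes relative to those of Control, 6 members were higher (Atp5b, Atp5g1, Atp5g3, Cox5a, Cox7c and Uqcrfs1) and 2 lower (Atp5s and Atp5sl), while 17.1% of all genes were higher and 16.3% lower. The median log2 fold change was then 0.09 for members and 0.01 for all genes. With the replicate number as a block, 4 members were higher (Atp5b, Atp5g1, Cox5a and Uqcrfs1) and 3 lower (Atp5s, Atp5sl and Ndufv3), against 15.4% and 26.1% of all genes. With both together, a fit chosen after seeing the data, 11 members were higher and 2 lower, against 21.4% and 20.2% of all genes. In each of these fits the share of members called remained below that of all genes.

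For the members as a whole, libraries of the same group differed by more than the group means did. Summed over the 84 members, the level was 8277, 9497, 8752 and 8093 CPM in CHIR99021-treated explants, against 7665, 8393, 8950.3 and 8538 CPM in Control explants. The ranges overlapped, and the means were 8655 ± 626 CPM in CHIR99021 and 8387 ± 536 CPM in Control explants (SD, n = 4 each), a ratio of 1.03. In CHIR99021 replicate 2, 66 of the 77 tested members had their highest level of the group, and in replicate 4, 49 had their lowest. In the Control group, 63 members had their lowest level in replicate 1 and 47 their highest in replicate 3. For all genes tested the corresponding shares were 34.9% and 24.3% in those CHIR99021 libraries and 28.2% and 30.6% in those Control libraries. Most members were thus high or low in the same libraries of a group.

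The same showed in the same-numbered pairs. CHIR99021 replicate 1 exceeded Control replicate 1 in 55 of the 77 members (median log2 difference 0.08) and CHIR99021 replicate 2 exceeded Control replicate 2 in 67 (0.18). In pair 3 it was higher in only 28 members (-0.05) and in pair 4 in 13 (-0.11). The median over members therefore had opposite signs among the 4 pairs, while the median over all genes was between -0.06 and -0.05 in each. Members that were higher in all 4 pairs were Ndufa9, Uqcrb, Uqcrfs1, Cox5a, Cox6c, Atp5b and Atp5g1 (7 genes), and those lower in all 4 were Ndufa7, Ndufs1, Ndufs8, Ndufv1, Ndufv3, Sdha, Atp5s and Atp5sl (8 genes). The share of all genes with the same direction in all 4 pairs was not counted, so these lists do not set the members apart from other genes. Leaving out CHIR99021 replicate 2 turned the median log2 fold change of the members to -0.03, and leaving out Control replicate 1 turned it to -0.01.

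**Figure D4:**
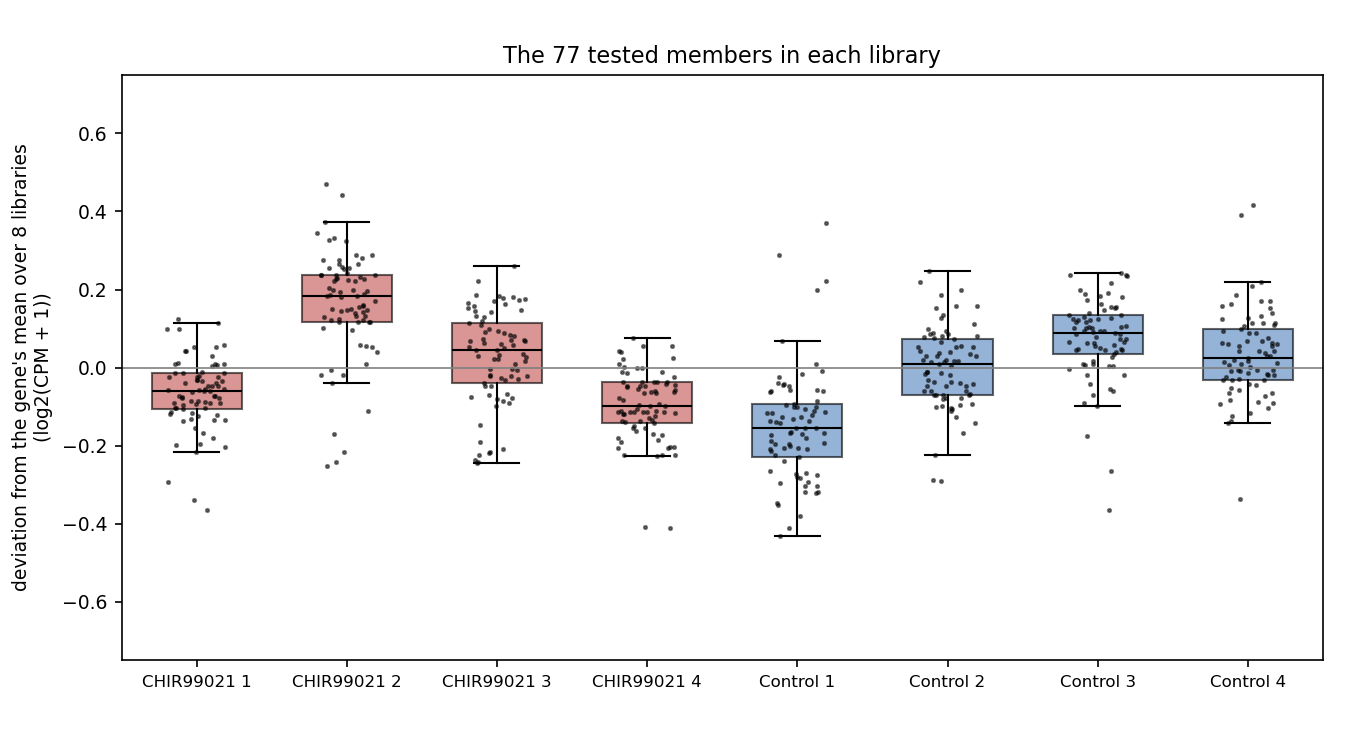
Deviation of each of the 77 tested members from its own mean over the 8 libraries (y axis, log2(CPM + 1)) in the CHIR99021 (red, left) and Control (blue, right) libraries, with points for genes and boxes for the median, the quartiles and the points within 1.5 times the interquartile range. The median is highest in CHIR99021 replicate 2 (0.18) and lowest in Control replicate 1 (-0.16), and 1 point, Uqcrc1 in Control replicate 3, lies above the axis.

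By complex, the summed CPM of complex I was 2061, 2415, 2211 and 2009 in CHIR99021-treated explants, against 1999, 2195, 2313 and 2251 in Control explants, and the ratio of the means was 0.99. It was 0.96 for complex II, 1.04 for complex III, 1.06 for complex IV and 1.06 for complex V, and in every complex the ranges of the groups overlapped. Complex V alone made up 3767 ± 221 CPM in CHIR99021 and 3567 ± 211 CPM in Control explants (SD, n = 4 each), most of it from Atp5b and Atp5a1. Per kilobase of transcript, Atp5b (569.6 and 506 CPM per kb in CHIR99021 and Control explants), Cox4i1 (465 and 455 CPM per kb), Atp5g3 (340.3 and 303 CPM per kb) and Atp5a1 (325 and 326 CPM per kb) led the members. The median per kilobase was lower for the genes of complex I (54.8 and 55.0 CPM per kb) than for those of complexes II to V, which lay between 80.3 and 102 CPM per kb in CHIR99021 and between 78.3 and 96.2 CPM per kb in Control explants. These values divide by the longest annotated transcript of each gene, and which transcripts were in use was not measured.

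The 13 protein genes of mitochondrial DNA, which complete complexes I, III, IV and V, varied far more. Together they had 8344, 4234, 5143 and 18189 CPM in CHIR99021-treated explants, against 17701, 5790.3, 7199 and 16924 CPM in Control explants. In both groups replicate 4 was high and replicates 2 and 3 low, while replicate 1 was high in Control only. The split was extreme for some genes and mild for others. Mt-Co2, a core subunit of complex IV, had 146, 3.70, 2.93 and 2033 CPM in CHIR99021-treated explants and 1865, 314, 446 and 1992 CPM in Control explants, whereas mt-Nd2, a membrane subunit of complex I, had 572, 345, 429.9 and 805 CPM and 743, 348, 417 and 674 CPM. With libraries of such spread, 0 of the 13 were called higher and 1 lower (mt-Atp8, limma adjusted p = 0.0492), or 0 after TMM scaling and 7 lower with the replicate number as a block. Replicates 2 and 3 were also those with the fewer genes detected, and the part of these library differences in any of the results was not tested. Among the nuclear members, replicates 1 and 4 alone gave 0 higher and 1 lower (Atp5sl), and replicates 2 and 3 alone gave 1 higher (Ndufa12) and 0 lower.

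**Figure D5:**
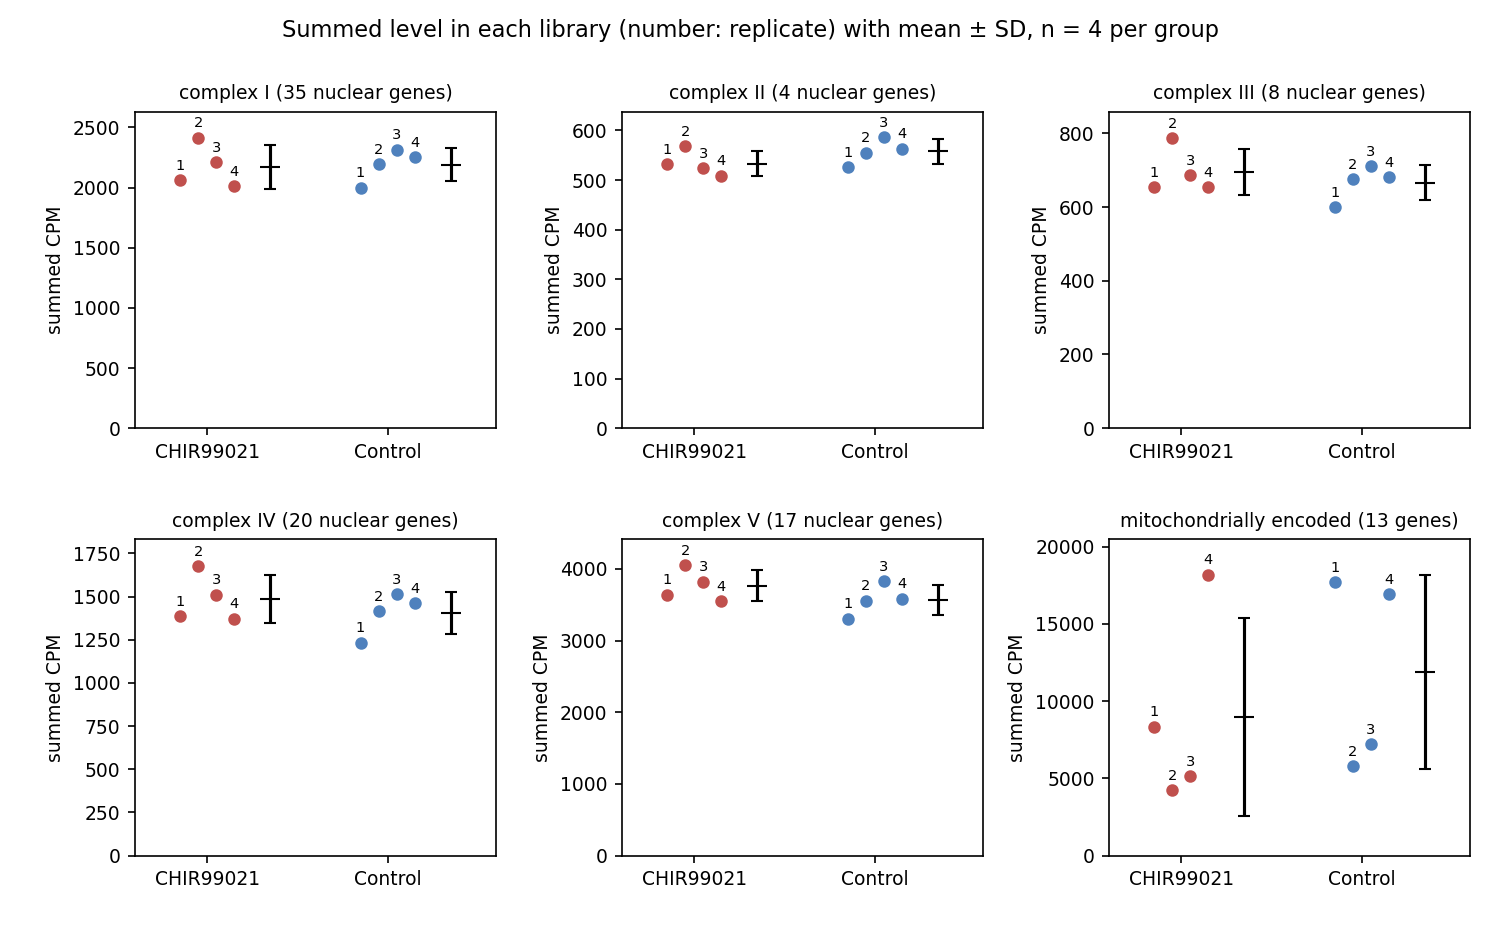
Summed CPM (y axis, from 0) of the nuclear genes of each complex and of the 13 mitochondrially encoded genes in each library of the CHIR99021 (red, left) and Control (blue, right) groups, numbered by replicate, with mean and SD of 4 libraries in black. For the nuclear genes the groups overlap in every panel, with CHIR99021 replicate 2 on top of its group, while the mitochondrially encoded genes run from 4234 to 18189 CPM.

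Other genes of the pathway were counted in the same fit, beside the 2 higher and 2 lower of 77 members. Over all genes tested the shares were 12.3% higher and 21.4% lower. They were 17.1% and 16.3% after TMM scaling, and 15.4% and 26.1% with the replicate number as a block. Of 41 assembly factors of the chain that were tested, 4 rose and 8 fell (7 and 3 after TMM scaling), with a median log2 fold change of -0.02. Lrpprc, which stabilises mitochondrial mRNAs, averaged 124 ± 7.84 CPM in CHIR99021-treated and 93.4 ± 5.21 CPM in Control explants (SD, n = 4 each, log2 fold change 0.41, limma adjusted p = 0.000675), and Uqcc3, an assembly factor of complex III, averaged 14.8 ± 2.45 and 23.7 ± 2.27 CPM in the same order (-0.65, limma adjusted p = 0.00163). Of 15 other components of the chain, including carriers, 4 rose and 1 fell (6 and 0 after TMM scaling, 7 and 1 with the replicate number as a block). The adenine nucleotide carrier Slc25a5, which exchanges ADP for ATP, was among those that rose (328 ± 4.85 CPM in CHIR99021-treated and 263 ± 18.7 CPM in Control explants, log2 fold change 0.32).

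In the tricarboxylic acid cycle and the pyruvate dehydrogenase step that feeds it, 5 of 17 genes rose and 2 fell. The shares over all genes tested were 12.3% and 21.4%. Idh3a and Idh3g encode different subunits of the NAD-dependent isocitrate dehydrogenase, and they went opposite ways, with log2 fold changes of 0.43 for Idh3a and -0.27 for Idh3g (limma adjusted p = 0.000286 and 0.00246). Among 17 regulators of mitochondrial gene expression, 2 rose and 7 fell (3 and 4 after TMM scaling). Pprc1, a coactivator of respiratory genes, averaged 111 ± 16.6 CPM in CHIR99021-treated and 62.5 ± 4.27 CPM in Control explants (log2 fold change 0.81), while the related coactivator Ppargc1a averaged 3.74 ± 0.807 and 8.59 ± 0.92 CPM in the same order (-1.03). Gabpa, the DNA-binding subunit of GABP, fell to 79.8 ± 4.98 CPM in CHIR99021-treated explants, against 101.7 ± 6.95 CPM in Control explants. Gabpa lies next to the member Atp5j, and the exons of the pair overlap over 12.7% of those of Atp5j on opposite strands.

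Of 75 mitochondrial ribosomal protein genes, 6 rose and 4 fell, against 12.3% and 21.4% of all genes tested. With TMM scaling 12 of them were higher and 1 lower, and with the replicate number as a block 10 were higher and 5 lower. Of 86 cytoplasmic ribosomal protein genes, another large set of short and abundant transcripts, 12 rose and 0 fell, with 22 and 0 after TMM scaling and 30 and 1 with the replicate number as a block. The members were short as well, with a median transcript of 1129 bases against 3346 bases for all genes tested, and 62 of the 77 were among the 3561 shortest genes, of at most 2089 bases. Of those genes 10.03% rose and 15.8% fell. Among the 62 members 1 rose and 1 fell.

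Markers of the cell types that an explant can hold were counted as well. Of those tested, 4 of 5 for glia, 3 of 7 for neurons, 4 of 10 for the duct epithelium, 2 of 5 for macrophages and 1 of 6 for endothelium fell, those for mesenchyme divided into 2 that rose and 4 that fell of 8, and of 7 erythroid and 2 muscle markers none passed the test. Of all genes tested, 12.3% rose and 21.4% fell. After TMM scaling 3 markers of glia and 1 of macrophages fell, 3 of mesenchyme rose, and the other counts stayed the same. The summed neuronal markers lay between 116 and 149.6 CPM in CHIR99021-treated explants and between 204 and 222 CPM in Control explants, and those of glia between 469.7 and 503 and between 653 and 714 CPM in the same order. For epithelium the ranges were 3757 to 4061 CPM in CHIR99021-treated explants and 3892 to 4141 CPM in Control explants. Muscle markers summed to at most 8.04 CPM in CHIR99021-treated and 5.36 CPM in Control explants, with Myf5 at 0 in every library. The part of these shifts in the members' values was not tested.

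No member was called between the libraries titled M and those titled F. With treatment in the model, limma called 0 of the 77, with 1 at an unadjusted p below 0.05, and edgeR on recovered reads called 0, with 2 at an unadjusted p below 0.05, while 0.0981% of all genes passed in limma. That fit takes the same-numbered libraries as independent. On the means of each same-numbered pair (2 pairs titled M and 2 titled F), a fit chosen after seeing the data, limma again called 0 members, with 1 at an unadjusted p below 0.05, and 0.0491% of all genes. The smallest p among members belonged to Atp5l, with a log2 difference of M minus F of 0.26 (limma adjusted p = 0.81). The response to CHIR99021 was not found to differ between M and F in any member, with 0 called and 0 at an unadjusted p below 0.05 in limma and in edgeR, and 0% of all genes passed. The median half-width of the 95% interval was 0.42 for this difference in response, with 2 libraries per sex and group.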

How the data were processed

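RNA-seq libraries from 8 cochlear explant samples (4 CHIR99021, 4 Control) were polyA-selected and strand-specific, with 75 bp reads. Per the submitters' processing notes, reads were mapped to GRCm38 with HISAT2. The counter, its strand setting and its treatment of reads with several matches are not given in the sources used here. The authors deposited 1 table of CPM per gene and library, scaled to the reads they assigned, of which 99.7% fell on the genes in the table. Its 12 columns of the authors' own comparisons (fold changes, p-values and false discovery rates, for all libraries and by sex) were not used. No per-sample column was left unmapped.

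In the deposited CPM, 100% of the values were whole reads within 0.001 read, and 1 read was worth 0.0112 to 0.0154 CPM. Groups were taken from the labels. The p-values of the main test, which did not pair the libraries, rest on the spread between the 4 biological replicates of a group. With the replicate number as a block they rest on the spread of the differences within same-numbered pairs. In both, limma shares information on spread across genes. The main test was limma 3.58.1 on log2(CPM + 1) with its trend option. Genes whose CPM averaged under 1 were left out, and the Benjamini-Hochberg correction was applied across those kept, at 0.05. Fold changes on this log2 scale understate those of low genes. The alternatives were a pseudocount of 0.1, no filter or a mean CPM of at least 5, TMM or median-of-ratios scaling, edgeR 4.0.16 and DESeq2 1.42.0 on the recovered reads, the replicate number as a block, single libraries left out, and subsets of replicates. The fit was also run on simulated counts with independent libraries and the same dispersion for every gene. Those counts hold no pairing and no shared library differences, so they cannot test the fit under these. Same-numbered libraries deviated together (r = 0.514, 0.247, 0.352 and 0.337 for numbers 1 to 4, against at most 0.168 between other numbers), so the numbers pair the libraries, a pairing that rests on these correlations.

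Transcript lengths, overlaps and gene positions came from GENCODE M21, and promoters from RefSeq (GRCm38.p6), matched by symbol or synonym for 69 members. Genes shown with per-library values were the called members of largest change, 1 main subunit of most complexes, complex II, and the paralogs. Values of 1 tested complex I gene are not reported here singly. Atp5s, Uqcrc1, Ndufb2, Ndufv3, Cox7c, Uqcrfs1, Ndufa12 and Ndufa7 were chosen after their values were seen. The members, lists and tests were chosen with earlier results of these data known. The S6 kinase genes, whose symbols begin with Rps, were taken out of the ribosomal list.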

Additional observations from a re-analysis of the deposited data

Results flagged for a closer look

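Dixon's criterion was applied to the 4 libraries of each group for the members with per-library results, 72 groups in all, where chance alone gives about 1 in 20. Among the tested members it marked 2 groups. Uqcrc1 had 8.93 CPM in Control replicate 3, against 1.335 to 1.501 CPM in the other Control libraries, and 1.22 to 1.88 CPM in CHIR99021 explants. Sdhc had 78.1 CPM in Control replicate 1, against 100.6 to 104.8 CPM in the other Control libraries. The same Control library was the lowest of its group for 63 of the 77 tested members. The untested Cox6a2 in Control, at 0.056 CPM in replicate 1 and 0 in the other libraries, also meets the criterion. Groups at 0 in every library, as for Cox8b and Cox8c, cannot meet it.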

How the results depend on the processing

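Against 2 members higher and 2 lower in CHIR99021 explants, 4 were higher with the replicate block, 0 without a filter on low CPM, 6 with TMM scaling, 6 with median-of-ratios scaling, 5 with edgeR and 7 with DESeq2 on recovered reads. Leaving out 1 library at a time gave 0 to 3 higher and 2 to 4 lower, with 4 lower without CHIR99021 replicate 2. Replicates 1 and 4 alone gave 0 higher and 1 lower (1154 genes higher overall), and replicates 2 and 3 alone gave 1 higher and 0 lower (611 and 1057 genes overall). A replicate block with TMM scaling, chosen after seeing the data, gave 11 higher. Over all genes, 1753 were higher and 3052 lower, against 2779 higher with DESeq2, 3059 higher with the replicate block and TMM scaling, and 1370 to 1723 higher and 2492 to 2887 lower on leaving out 1 library. The cause of these shifts was not tested, and the subsets also hold fewer libraries. Over the 19 alternatives, Atp5sl passed in 18, Atp5s in 17, Atp5g1 in 15 and Cox5a in 10, and no fold change of a named member that had been called changed sign. The members' median log2 fold change stayed between -0.03 and 0.10, with a pooled SD of the library medians of 0.09. The counts for M against F stayed at 0 under TMM scaling and edgeR, and those for the difference in response stayed at 0 also with the replicate block. The replicate block gave calls to Atp5b, Uqcrfs1 and Ndufv3 and changed no other call among the members. As a block the number could not be fitted for M against F, since each number holds only 1 of them, and a fit on the means per number, chosen after seeing the data, gave 0. With 4 libraries a group, the 95% interval of a member's log2 fold change had a median half-width of 0.19.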
